A study of Mus musculus with 46 samples.

Results

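The oxidative phosphorylation genes are the nuclear genes for the respiratory chain and the ATP synthase of the mitochondrion. They were taken by symbol as the protein-coding genes on nuclear chromosomes whose names start with Nduf (complex I), Sdh followed by a to d (complex II), Uqcr (complex III), Cox followed by a number (complex IV) or Atp5 (complex V). This gave 100 of 22271 genes in the GENCODE vM1 annotation of the mouse assembly mm9. Grouped by symbol, 38 were counted in complex I, 4 in complex II, 8 in complex III, 18 in complex IV and 15 in complex V. The complex given for a gene below is that of its name, which need not match its role in every case. Another 13 are assembly factors, and 4 match by name but encode no subunit (Cox4nb, Atp5s, Atp5sl and Atp5l-ps1). The members are spread over 19 chromosomes.

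ChIP-Seq peak lists were analysed for the histone variant H3.3 in 16 libraries and for the trimethyl marks H3K4me3 and H3K36me3 in 7 libraries each. The reprogramming series began with mouse embryonic fibroblasts (MEFs) from mid-gestation embryos with an EGFP cassette behind the Oct4 gene, and retroviral Oct4, Sox2, Klf4 and c-Myc (OSKM) were delivered by pMXs vectors. Unsorted cells were taken at day 0 (D0) and day 3 (D3), and cells were sorted by the fibroblast surface protein Thy-1 at day 6 and day 9 and by the stem cell antigen SSEA-1 at day 12 and day 16. The successful route is D6T-, D9T-, D12S+ and D16S+ and ends in fully reprogrammed iPSCs, the unsuccessful fractions are D6T+, D9T+, D12S- and D16S-, and ESD3 is an embryonic stem cell line. In the transdifferentiation series, MEFs sorted free of hematopoietic cells received retroviral Scl, Lmo2, Bmi1 and Runx1 (SLBR) and grew with inactivated OP9 stromal cells. Its 4 libraries are MEF (day 0), D4 (day 4) and the sorted cKit+ and cKit- cells. H3K4me3 and H3K36me3 were profiled for D0, D3, the successful fractions and iPSCs. Each group and mark has 1 library, so no difference between groups has a replicate check, and intervals below cover counting error over genes only.

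Oxidative phosphorylation moves electrons from NADH and succinate through complexes I to IV to oxygen, and complex V uses the resulting proton gradient to make ATP. Nearly all of its subunits are encoded in the nucleus and must be made together with the few encoded by mitochondrial DNA, and the transcription factors NRF1, GABPA, YY1, Sp1 and the estrogen-related receptors are known to act on their promoters. Fibroblasts and pluripotent cells differ in how much they rely on this pathway, with pluripotent cells known for high glycolysis. H3.3 is put into chromatin outside DNA replication, largely over transcribed genes and regulatory elements, while H3K4me3 marks active promoters and H3K36me3 the bodies of transcribed genes.

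The promoters of the members were rich in CpG dinucleotides. In the window from 250 bp before to 50 bp after the annotated start, the median ratio of observed to expected CpG was 0.814 for the members and 0.535 for all genes, and 76 members (76.0%) reached a ratio of 0.6, as did 45.2% of all genes and 84.4% of the 77 genes for mitochondrial ribosomal proteins. Among structural subunits the share at this ratio differed by isoform type. None of 8 isoforms known to be restricted to certain tissues (Cox4i2, Cox6a2, Cox6b2, Cox7a1, Cox7b2, Cox8b, Cox8c and Ndufa4l2) reached 0.6, with a median of 0.382, whereas 60 of the other 75 did.

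Exact matches to 5 short motifs were counted on both strands. NRF1 (CGCATGCG) matched in 9 members (2.23% of all promoters), namely Atp5g2, Atp5k, Atp5l, Cox18, Cox6a1, Ndufa11, Ndufaf4, Uqcr11 and Uqcrc1. GABPA and other ETS factors (CCGGAAGT) matched in 9 (4.71%), YY1 (AAGATGGCG) in 7 (1.84%), the estrogen-related receptor motif (TCAAGGTCA) in Atp5g3 and Sdhd only (0.359%), and Sp1 (GGGGCGGGG) in 16 (14.8%). Any of the first 4 was found in 24 members (24.0%) and in 8.66% of all promoters. Within promoters at a CpG ratio of 0.6 or more, the shares were 11.8% of members and 4.48% of all genes for NRF1, 11.8% and 8.74% for GABPA, 9.21% and 3.50% for YY1, and 17.1% and 26.3% for Sp1. A match is a description of the letters and not of factor binding. A few of these windows are printed 5′ to 3′ on the strand of the gene, from mm9, because they set a common subunit isoform beside its restricted partner and show where the NRF1 and GABPA letters lie; capitals mark the motif matches. Cox6a1 (chr5:115798941-115799240, minus strand, CpG ratio 1.03) is the common form of subunit 6a and Cox6a2 (chr7:135349831-135350130, minus strand, 0.130) its heart and muscle form. Cox8a (chr19:7292057-7292356, minus strand, 0.842) and Cox8b (chr7:148086296-148086595, minus strand, 0.115) are the same kind of pair for subunit 8. Uqcr11 (chr10:79869526-79869825, minus strand, 0.744), a small subunit of complex III, carries both NRF1 and GABPA letters.
Cox6a1: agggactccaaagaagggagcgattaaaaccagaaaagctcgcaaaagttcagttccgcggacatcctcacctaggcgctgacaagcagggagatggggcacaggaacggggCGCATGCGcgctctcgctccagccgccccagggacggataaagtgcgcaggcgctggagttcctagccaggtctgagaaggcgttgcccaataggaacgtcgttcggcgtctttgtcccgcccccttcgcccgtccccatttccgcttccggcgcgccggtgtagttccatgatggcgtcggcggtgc
Cox6a2: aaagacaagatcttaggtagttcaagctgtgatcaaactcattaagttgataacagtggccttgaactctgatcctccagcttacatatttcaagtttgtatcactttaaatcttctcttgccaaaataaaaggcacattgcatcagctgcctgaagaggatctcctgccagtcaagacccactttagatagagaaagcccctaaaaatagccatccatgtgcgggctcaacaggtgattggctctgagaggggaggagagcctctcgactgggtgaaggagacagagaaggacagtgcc
Cox8a: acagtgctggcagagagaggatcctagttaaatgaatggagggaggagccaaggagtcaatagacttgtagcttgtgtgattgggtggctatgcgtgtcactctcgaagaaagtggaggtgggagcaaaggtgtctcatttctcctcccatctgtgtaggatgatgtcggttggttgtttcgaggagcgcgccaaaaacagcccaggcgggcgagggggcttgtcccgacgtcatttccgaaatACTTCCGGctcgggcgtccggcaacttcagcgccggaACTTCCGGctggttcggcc
Cox8b: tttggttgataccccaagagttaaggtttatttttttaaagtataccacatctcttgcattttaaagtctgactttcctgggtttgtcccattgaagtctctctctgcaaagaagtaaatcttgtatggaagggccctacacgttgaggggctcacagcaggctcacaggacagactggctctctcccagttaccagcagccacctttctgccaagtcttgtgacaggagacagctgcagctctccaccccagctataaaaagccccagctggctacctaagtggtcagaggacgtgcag
Uqcr11: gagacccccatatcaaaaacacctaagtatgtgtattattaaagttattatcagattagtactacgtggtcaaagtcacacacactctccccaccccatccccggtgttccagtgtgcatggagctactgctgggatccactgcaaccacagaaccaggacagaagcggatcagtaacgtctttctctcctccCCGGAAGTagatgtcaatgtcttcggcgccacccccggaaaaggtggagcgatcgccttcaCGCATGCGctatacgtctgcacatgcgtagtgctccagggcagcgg

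The labelled cell types were compared with marker genes before the members were described. All 8 fibroblast markers had an H3.3 peak in D0, in the 4 unsuccessful fractions, in MEF and in D4, against 3 in iPSCs and 1 in ESD3. Of 8 pluripotent markers, 3 had one in D0, 8 in iPSCs and 7 in ESD3. Of 7 hematopoietic markers that could be matched, 4 had one in MEF, 7 in D4, 3 in cKit+ and 5 in cKit-, so cKit+ had fewer than MEF. Libraries also differed in depth and enrichment: the H3.3 reprogramming libraries held 18.7 to 41.2 M tags with 4.88 to 22.0% of them in peaks, the transdifferentiation libraries 46.7 to 91.8 M with 1.65 to 37.2%, H3K4me3 15.8 to 35.4 M with 3.71 to 34.8%, and H3K36me3 13.2 to 25.4 M with 1.07 to 42.4%. Across the 12 H3.3 reprogramming libraries the share of tags in peaks had a Spearman correlation of 0.77 with the share of members carrying a peak, and over 7 libraries 0.91 for H3K4me3 and 1.00 for H3K36me3. These are descriptions over single libraries, and the marks of a stage have 1 input between them. D12S+ and D16S+ were at the low end for all 3 marks, and the part of enrichment in any difference that involves them was not tested.

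H3.3 peaks lay over most oxidative phosphorylation genes at every reprogramming stage. A gene was counted when at least 1 peak overlapped the stretch from 1 kb upstream to 1 kb downstream of it. In D0, 87 members had H3.3, compared with 61.9% of all genes. D3 had 86 (57.4% of all genes), D6T- 88 (60.7%), D9T- 83 (58.3%), D12S+ 74 (50.3%), D16S+ 55 (43.4%), iPSCs 89 (61.2%) and ESD3 69 (52.2%). Among the unsuccessful fractions, D6T+ had 86 (53.1%), D9T+ 85 (55.0%), D12S- 93 (63.5%) and D16S- 91 (56.7%). The median over the 12 libraries was 86.0%, with a lowest value of 55.0% and a highest of 93.0%, and the members exceeded all genes by 11.6 to 34.3 percentage points. The lowest count was in D16S+, which had the fewest peaks of the 12, and those of D0 and iPSCs differed by 2 members.

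**Figure D1:**
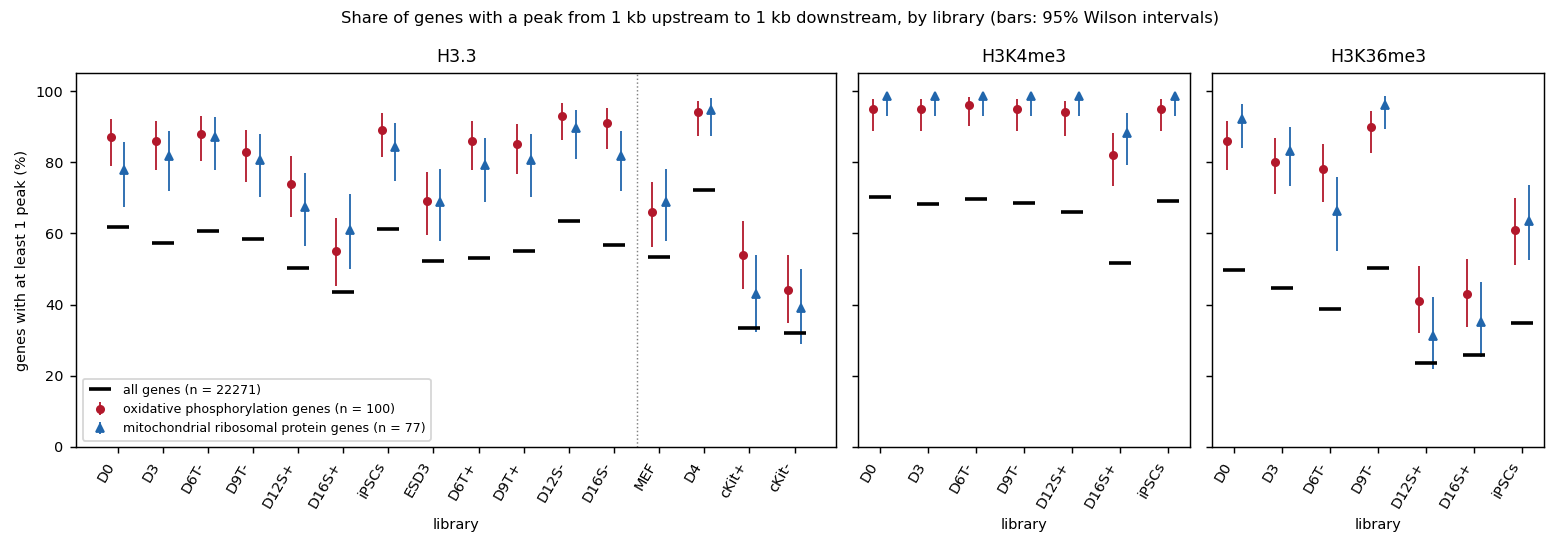
Share of genes with at least 1 peak within 1 kb of the gene (y axis, %) in each library (x axis) for H3.3, H3K4me3 and H3K36me3, for the 100 oxidative phosphorylation genes (circles), 77 mitochondrial ribosomal protein genes (triangles) and all 22271 genes (black dashes); bars are 95% Wilson intervals. The members lie above all genes in every library, and D16S+ is low for H3.3 (55.0%) and D12S+ for H3K36me3 (41.0%).

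Each complex had H3.3 at most of its genes in D0. It was present at 30 of 38 complex I genes, all 4 of complex II (succinate dehydrogenase), all 8 of complex III, 15 of 18 of complex IV (cytochrome c oxidase), 14 of 15 of complex V (ATP synthase) and all 13 assembly factors. In D16S+ the same counts were 20, 4, 3, 9, 10 and 8, so complex III went from 8 to 3 and complex II stayed at 4. In iPSCs they were 35, 4, 8, 13, 14 and 12.

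Between D0 and iPSCs the H3.3 share differed by 2.00 points (95% interval -7.26 to 11.3). H3.3 was present only in iPSCs at 6 members, beside 8.83% of all genes. These were the complex I accessory subunits Ndufb3, Ndufb4, Ndufb5, Ndufc1 and Ndufc2, and Ndufv1, which binds the NADH-side flavin. All of them except Ndufb3 already had H3.3 in D3. H3.3 was present only in D0 at 4 members (9.51% of all genes): Cox7b, Cox7c, Ndufa5 and the assembly factor Ndufaf4. With only H3.3 peaks of at least 4 fold over input kept, the difference was -42.0 points (all genes -23.7). With equal numbers of top-scoring peaks it was 9.00 points (-3.74 to 21.4; all genes -0.584), from 65 to 74 members, so its direction depended on how the peaks were chosen. From D16S+ to iPSCs, 35 members had H3.3 only in iPSCs (19.9% of all genes) and the share differed by 34.0 points (21.9 to 44.8; all genes 17.8). The difference was 19.0 points (5.74 to 31.4; all genes 2.26) with equal numbers of peaks.

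The same genes did not carry H3.3 in every library. It was present in all 7 libraries from D0 to iPSCs at 46 members (32.5% of all genes) and in all 12 reprogramming libraries at 38 (28.0%). With only H3.3 peaks of at least 4 fold over input kept, 5 members and 2183 of 22271 genes had it in all 7. D16S+ alone lacked it at 13 members, including Ndufs1 and Ndufs7 of the electron path of complex I, Uqcrc1 of complex III and the membrane-ring gene Atp5g3 of complex V, and 4.40% of all genes had this pattern. Only Ndufaf4 had H3.3 in D0 and D3 and none in D16S+, iPSCs and ESD3 (3.50% of all genes), and no member had the opposite pattern (1.76%). Ndufa8, Ndufaf4 and Ndufa4 had H3.3 in D0, D3 and all 4 unsuccessful fractions but in at most 1 of D12S+, D16S+, iPSCs and ESD3 (2.61% of all genes).

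The strength of H3.3 was read from the peak score, the tags in a peak scaled to 10 M tags, summed over the part of each peak inside the window. The highest medians over the 12 reprogramming libraries among members bound in all 12 belonged to Atp5b, Atp5o, Ndufa7, Atp5a1 and Atp5d, when the whole score of each peak was counted. Baz2a, Rps28 and Dos reach into the windows of Atp5b, Ndufa7 and Atp5d, and their peaks cannot be told apart here. Atp5b, the catalytic beta subunit of ATP synthase on chr10:127520329-127527447, had an H3.3 score in its window of 156 at D0, 158 at D3, 244 for D6T-, 190 for D9T-, 136 for D12S+, 102 for D16S+, 107 for iPSCs and 75.8 for ESD3. Its score was 175 for D6T+, 178 for D9T+, 234 for D12S- and 175 for D16S-. In transdifferentiation it was 116 in MEF, 196 in D4, 38.5 in cKit+ and 66.4 in cKit-. Atp5b was thus bound in every library, with its lowest values in cKit+ and cKit-. The median score per kb of all bound genes was also lowest in these 2 libraries (0.320 and 0.404). The score of Atp5o, the stalk subunit that confers oligomycin sensitivity, ran from 39.8 in D16S+ to 1700 in D4, but its annotated record spans 247 kb and takes in Donson, Cryzl1 and Itsn1. On a scale per kb of window, which allows genes to be compared, Atp5b had a median H3.3 score of 18.3 over the 12 libraries (8.32 to 26.7) and Atp5a1, the alpha subunit, 10.9 (8.80 to 17.9).

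Core subunits of the other complexes were more variable. Ndufv1 of complex I was weak or unbound, with a summed H3.3 score of 0 in D0 and 9.60 in iPSCs, although its H3K4me3 score was 142 and 86.6. Sdha, the flavoprotein of complex II, had an H3.3 score of 30.4 in D0, 36.4 in iPSCs and 0 in ESD3. Sdhb, its iron-sulfur subunit, had 95.8, 106 and 38.6 in the same libraries. The difference between these partners of complex II in ESD3 rests on a single library. Uqcrfs1, the Rieske protein of complex III, stayed at 15.2 or lower in the 12 reprogramming libraries and Cox5a of complex IV was bound in all 16, at 96.6 in D0, 64.3 in iPSCs and 6.67 in D16S+.

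**Figure D2:**
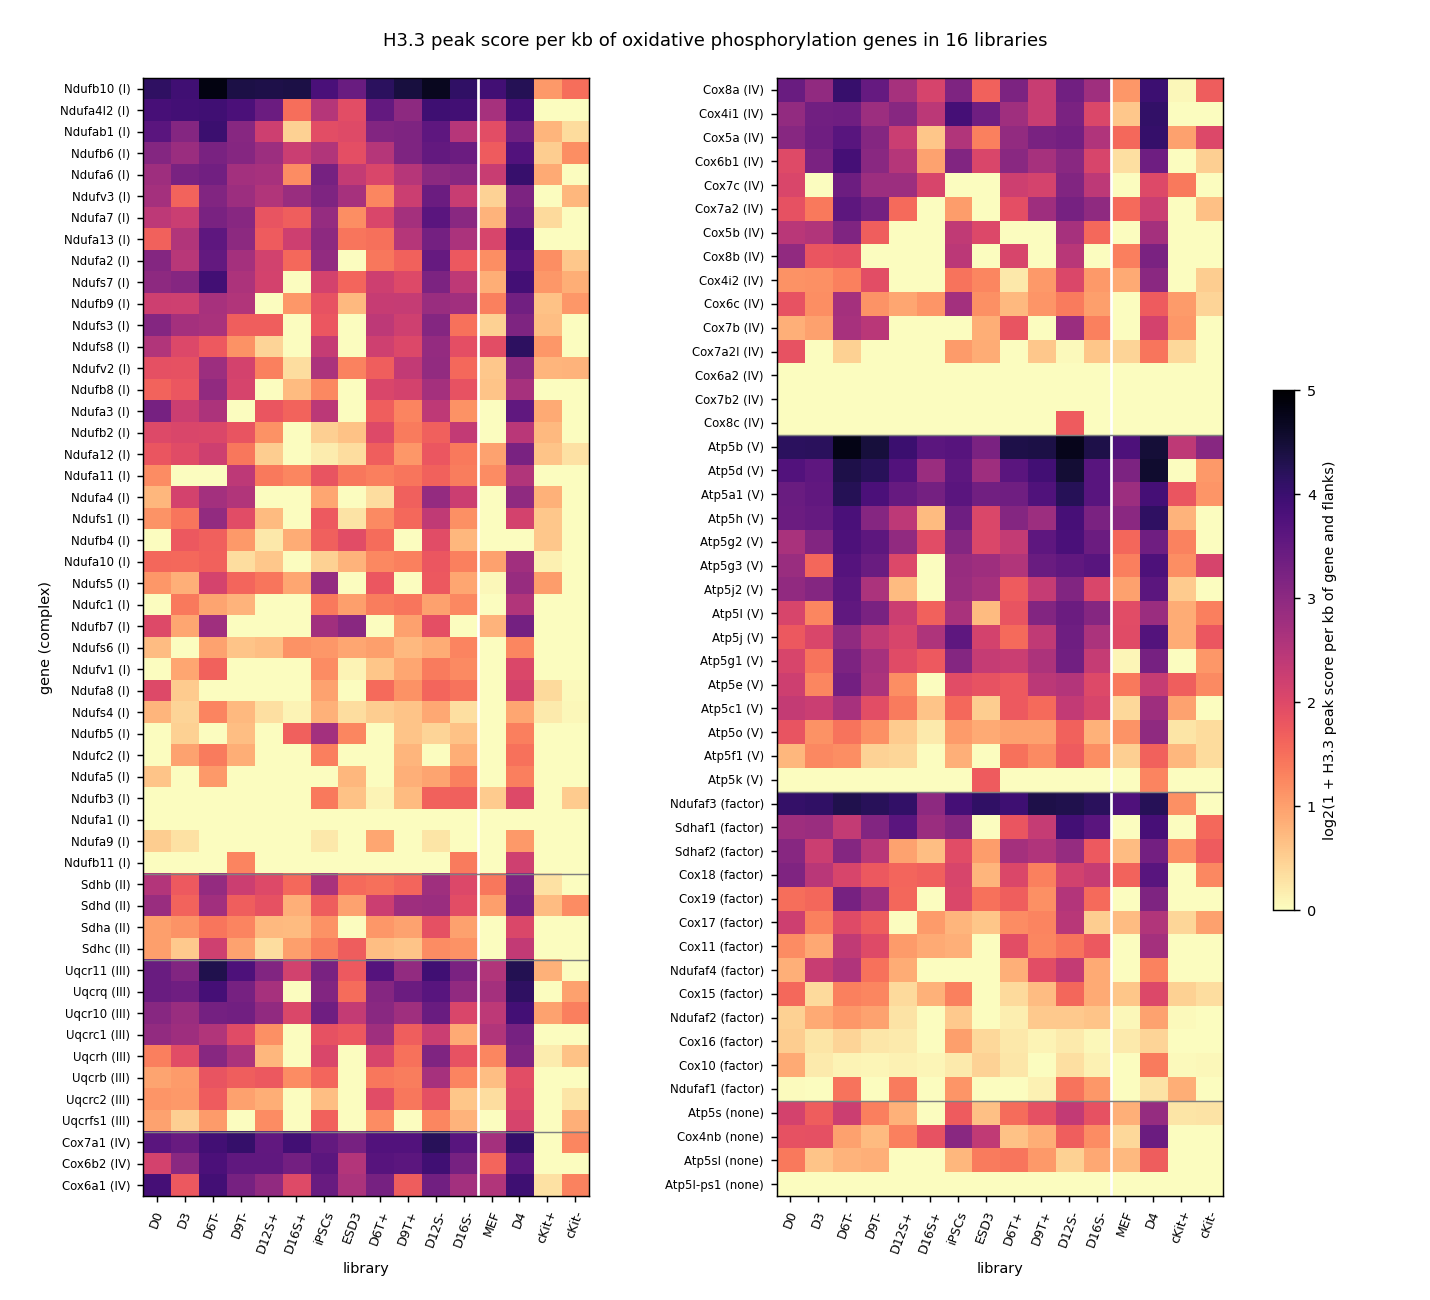
H3.3 peak score per kb of gene and flanks, as log2(1 + score), for the oxidative phosphorylation genes reported here (y axis, grouped by complex) in each of 16 libraries (x axis), on the colour scale drawn beside the map. Atp5b and Atp5a1 are filled in every column, and Ndufa1, Cox6a2, Cox7b2 and Atp5l-ps1 are empty in all 16.

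No H3.3 peak was found in any of 16 libraries at 4 members (20.0% of all genes). These were Cox6a2, Cox7b2 (the testis form of subunit 7b), the record Atp5l-ps1 and Ndufa1, a membrane subunit of complex I on the X chromosome. Ndufa1 was the only one of them with H3K4me3, in all 7 libraries, with a summed score of 111 at D0, 88.3 at D3, 115 for D6T-, 80.8 for D9T-, 37.6 for D12S+, 20.5 for D16S+ and 41.1 for iPSCs. Genes on X had H3.3 less often as a whole, 20.7% against 63.7% on autosomes in D0 and 14.0% against 63.3% in iPSCs. The other X-linked members were Ndufb11, bound in 3 of 16 H3.3 libraries, and Cox7b, bound in 10, and both had H3K4me3 in 7 of 7. Atp5k, the e subunit of ATP synthase on chromosome 5, likewise had H3K4me3 in all 7 libraries (22.5 to 214) and H3.3 only in ESD3 (7.40) and D4 (4.55). Pde6b, Rnf113a1 and Rbm10 reach into the windows of Atp5k, Ndufa1 and Ndufb11, and peaks of these neighbours cannot be told apart here.

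With all called peaks, H3K4me3 was the most constant mark. D0 had it at 95 members (70.3% of all genes), D3 at 95 (68.3%), D6T- at 96 (69.7%), D9T- at 95 (68.6%), D12S+ at 94 (66.0%), D16S+ at 82 (51.7%) and iPSCs at 95 (69.1%). The members with the mark were the same in D0 and iPSCs: none was present only in iPSCs (2.98% of all genes) and none only in D0 (4.18%), with an interval of -6.80 to 6.80 points for the difference. Peaks of at least 8 fold over input gave a difference of -39.0 points (all genes -35.6), so this constancy depended on which peaks were kept. H3K4me3 was found in all 7 libraries at 82 members (49.3% of all genes) and in none at Atp5l-ps1, Cox6a2, Cox7b2 and Cox8b (24.6%). In D0 it lay on every gene of complexes I, II, III and V and on 14 of 18 of complex IV, and on 75 of 75 structural subunits once the restricted isoforms were set aside.

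Scores of H3K4me3 were high for the members even among genes that carry the mark. The median score per kb of the bound members was 3.12 to 3.89 times that of all bound genes across the 7 libraries. The corresponding ratio was 1.55 to 2.74 for H3.3 over 16 libraries and 1.38 to 1.97 for H3K36me3. Members are short, with a median length of 7.72 kb (0.312 to 247) against 15.5 kb, and the part of length in these ratios was not tested. The highest median belonged to Ndufb10, an accessory subunit of complex I whose window contains Rps2, at 74.2 per kb for D0, 69.2 for D3, 111 for D6T-, 67.5 for D9T-, 23.6 for D12S+, 10.8 for D16S+ and 42.8 for iPSCs. Its H3K4me3 was therefore highest in D6T- and lowest in D16S+, as was that of Atp5b (67.5 and 8.36 per kb). The median of all bound genes was highest and lowest in the same libraries (6.29 and 0.932 per kb). So was the share of tags in peaks (34.8% and 3.71%).

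With all called peaks, H3K36me3 differed most between stages. D0 had it at 86 members (49.7% of all genes), D3 at 80 (44.6%), D6T- at 78 (38.8%), D9T- at 90 (50.3%), D12S+ at 41 (23.5%), D16S+ at 43 (25.7%) and iPSCs at 61 (34.8%). From D9T- to D12S+, 50 members lacked it that had it before (27.6% of all genes). From D0 to iPSCs, 28 lacked it (18.0% of all genes) and 3 had it only in iPSCs (3.08%), a difference of -25.0 points (-36.2 to -12.9) beside -14.9 points for all genes. With equal numbers of top-scoring peaks the difference was -13.0 points (-26.1 to 0.829; all genes -8.45), so its interval then reached 0, and tags in peaks were 31.3% in D0, 1.07% in D12S+ and 2.88% in iPSCs. With peaks of at least 8 fold over input the H3K36me3 difference was -12.0 points (all genes -9.12), smaller than the -39.0 points of H3K4me3. With all peaks, H3K36me3 was present in all 7 libraries at 24 members (14.6% of all genes).

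Among complexes, H3K36me3 went from 36 to 23 genes of complex I, stayed at 4 of complex II, went from 7 to 6 of complex III, from 13 to 9 of complex IV, from 14 to 11 of complex V and from 11 to 6 assembly factors between D0 and iPSCs. When the whole score of each peak was counted, the highest medians over the 7 libraries were those of Ndufa10 and Sdha and of the assembly factor Cox16, whose record spans 126 kb. Within its window, Sdha had an H3K36me3 score of 605 at D0, 343 at D3, 195 for D6T-, 863 for D9T-, 28.8 for D12S+, 51.9 for D16S+ and 49.8 for iPSCs. Ndufs1, the largest subunit of the electron path of complex I, had 717, 443, 196, 1030, 22.2, 54.6 and 80.7 in the same order. Both were highest in D9T- and lowest in D12S+. The median H3K36me3 score per kb of all bound genes was highest and lowest in the same libraries (9.12 and 0.405). So was the share of tags in peaks (42.4% and 1.07%). Atp5b had an H3K36me3 score of 222 in D0 and none in iPSCs, where its H3K4me3 (219) and H3.3 (107) remained.

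All 3 marks lay together on 78 members at D0 (44.4% of all genes), 76 at D3 (39.0%), 74 for D6T- (35.9%), 78 for D9T- (43.6%), 38 for D12S+ (20.1%), 25 for D16S+ (17.4%) and 59 for iPSCs (32.4%). In D0, 8 members had H3.3 and H3K4me3 without H3K36me3 (13.8% of all genes). Another 7 had H3K4me3 and H3K36me3 without H3.3 (3.11% of all genes). All 7 were complex I genes (Ndufb3, Ndufb4, Ndufb5, Ndufb11, Ndufc1, Ndufc2 and Ndufv1). Cox8b alone had H3.3 and H3K36me3 without H3K4me3 (1.19% of all genes). Atp5k and Ndufa1 had H3K4me3 only (8.96%), and Atp5l-ps1, Cox6a2, Cox7b2 and Cox8c had none (25.0%). In iPSCs, 29 members had H3.3 and H3K4me3 without H3K36me3. Peaks of at least 4 fold over input for H3.3, or 8 for the other marks, were also counted alone. The median share with all 3 marks over the 7 stages was then 9.00% of members and 9.42% of all genes.

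Along the genes the marks kept different places. In D0, H3K4me3 covered 85.2% of the first 10% of gene length in the members on average (all genes 40.3%) and H3K36me3 65.5% of the last 10% (27.6%). H3.3 covered 15.2% of the first such part, 28.0% of the middle one and 37.0% of the last, compared with 14.6%, 13.0% and 18.8% for all genes. In D0, then, H3.3 coverage was higher towards the 3′ end of the members. In iPSCs the first part stood at 32.0% and the last at 33.5%. Just upstream of the start, where the profile is read in steps of 100 bp, H3.3 covered up to 37.0% of members in D0 and up to 55.0% in iPSCs (all genes 23.7% and 30.4%). It was lower in the step before the start itself, at 11% and 26% of members (15.1% and 16.4%).

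**Figure D3:**
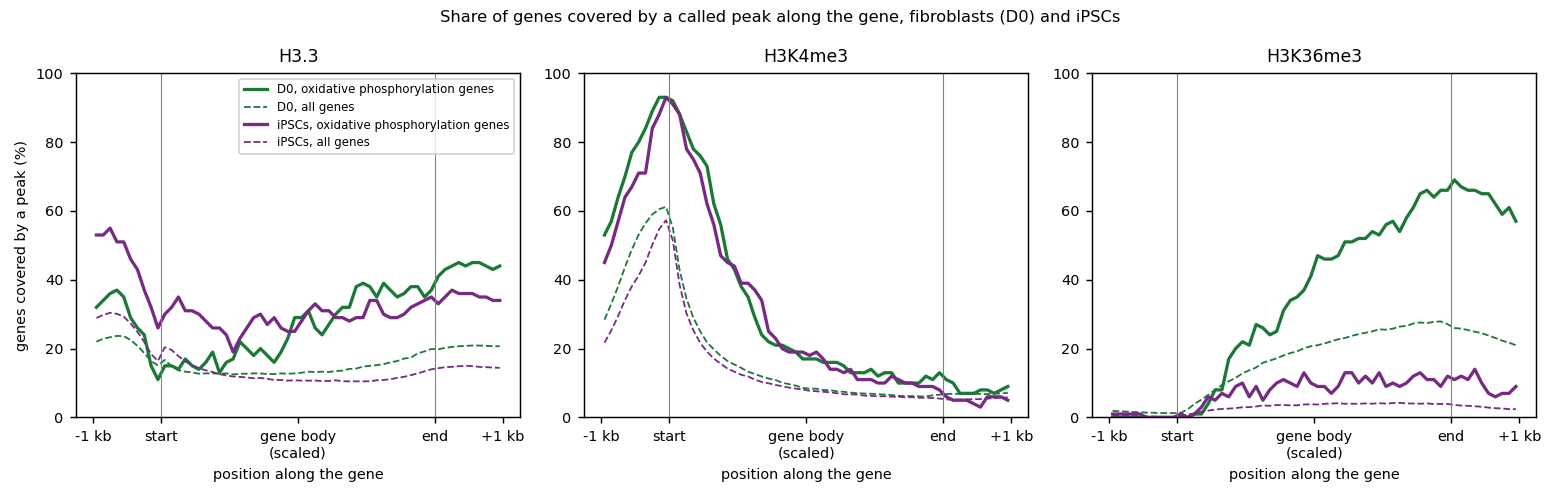
Share of genes covered by a peak (y axis, %) along the gene body and its flanks (x axis, from 1 kb before the start to 1 kb after the end, with the gene scaled to 1 length) for the 3 marks in D0 and iPSCs, with oxidative phosphorylation genes and all genes as separate lines. H3K4me3 peaks at the start, H3K36me3 towards the end, and H3.3 of the members covers 15.2% of the first 10% of the gene in D0 and 32.0% in iPSCs.

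H3.3 at the start of the genes differed between D0 and iPSCs. An H3.3 peak lay within 1 kb of the start at 56 members in D0 (40.4% of all genes) and at 79 in iPSCs (45.9%). It was present there only in iPSCs at 29 members, including Sdha, Uqcrfs1, Cox5a, Atp5a1 and Ndufv1, and only in D0 at 6, while 14.4% and 8.84% of all genes had these patterns. With equal numbers of top-scoring peaks the counts were 33 in D0 (23.8% of all genes) and 62 in iPSCs (32.2%), with 37 members only in iPSCs (15.9%) and 8 only in D0 (7.56%). Within 1 kb of the end, the counts were 62 in D0 (32.9% of all genes) and 54 in iPSCs (26.9%), and 46 (23.1%) and 39 (17.7%) with equal numbers of peaks. Among the 75 members of 4 kb or more, where start and end windows are apart, the start was bound at 43 in D0 (57.3%) and 61 in iPSCs (81.3%), beside 45.1% and 51.8% of all genes of that length.

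ESD3 did not share the iPSC pattern. Only 31 members had H3.3 within 1 kb of the start in ESD3 (23.4% of all genes), and 49 that had it in iPSCs lacked it (25.3% of all genes). The counts with equal numbers of peaks were 62 in iPSCs (32.2% of all genes) and 25 in ESD3 (17.8%), and 37 members (18.1% of all genes) had it in iPSCs and not in ESD3. In transdifferentiation, H3.3 lay within 1 kb of the start at 87 members in D4 (60.9% of all genes) and at 35 in MEF (32.8%), and with equal numbers of peaks at 51 (38.3%) and 25 (23.8%). H3K4me3 lay within 1 kb of the start at 95 members in D0 (64.0% of all genes) and 95 in iPSCs (62.3%). H3K36me3 lay there at 1 in D0 (3.18%) and 7 in iPSCs (2.00%), and within 1 kb of the end at 82 in D0 (36.4%) and 32 in iPSCs (11.3%).

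**Figure D4:**
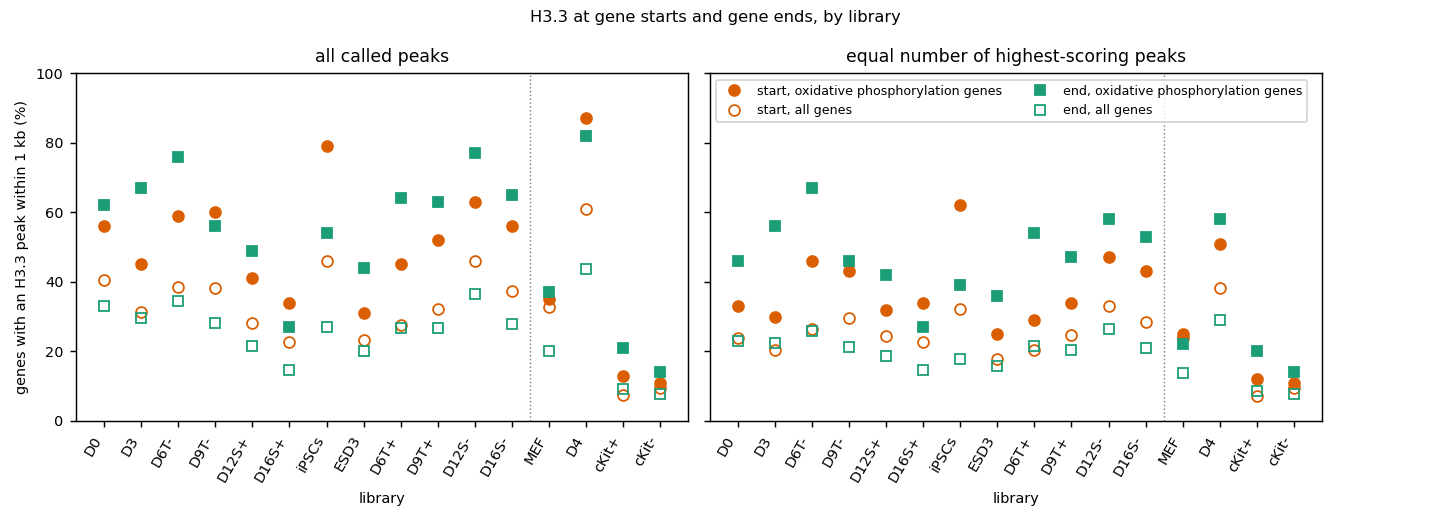
Share of genes with an H3.3 peak within 1 kb of the gene start (circles) or end (squares) on the y axis (%), by library on the x axis, for oxidative phosphorylation genes (filled) and all genes (open); the left panel uses all called peaks and the right panel equal numbers of the highest-scoring peaks. In iPSCs the members' start (79.0%, and 62.0% with equal numbers) lies above their end (54.0% and 39.0%), whereas in D0 the end (62.0%) lies above the start (56.0%).

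Isoforms of the same subunit differed in their marks. Cox4i1, the common form of the regulatory subunit 4, had an H3K4me3 summed score of 51.9 to 252 over 7 libraries, and Cox4i2, its lung and hypoxia form, 7.27 to 19.2, without overlap. Cox4i2 had no H3K36me3 in any library. Cox6a1 had 51.2 to 292 for H3K4me3, while Cox6a2 was at 0 for all 3 marks. Cox8a had 48.1 to 277, Cox8b was at 0 in all 7 and Cox8c, a testis form, reached 6.01 in D6T- only. The promoters with few CpG dinucleotides printed above, those of Cox6a2 and Cox8b, are among those without H3K4me3.

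Other restricted isoforms did carry peaks. Cox7a1, the heart and muscle form of subunit 7a, had an H3.3 score of 43.9 at D0, 38.4 at D3, 54.1 for D6T-, 60.4 for D9T-, 40.4 for D12S+, 54.1 for D16S+, 39.5 for iPSCs and 33.1 for ESD3, above the 17.5 in D0 and 6.80 in iPSCs of the common form Cox7a2 but below its 72.9 in D6T-. Its H3K4me3 score was 47.9 in D0, 15.7 in iPSCs and 0 in D12S+ and D16S+, below that of Cox7a2 in every library (42.7 to 279). Cox6b2, known from testis, and Ndufa4l2, known from hypoxia, had H3.3 in all 12 reprogramming libraries and H3K4me3 in all 7. Each of these genes has another gene inside its window (Capns1 for Cox7a1, Fam71e2 for Cox6b2 and Shmt2 for Ndufa4l2), and peaks of neighbours cannot be told apart from their own here. Cox8b, bound by H3.3 in 8 of 16 libraries, shares its window with Psmd13.

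**Figure D5:**
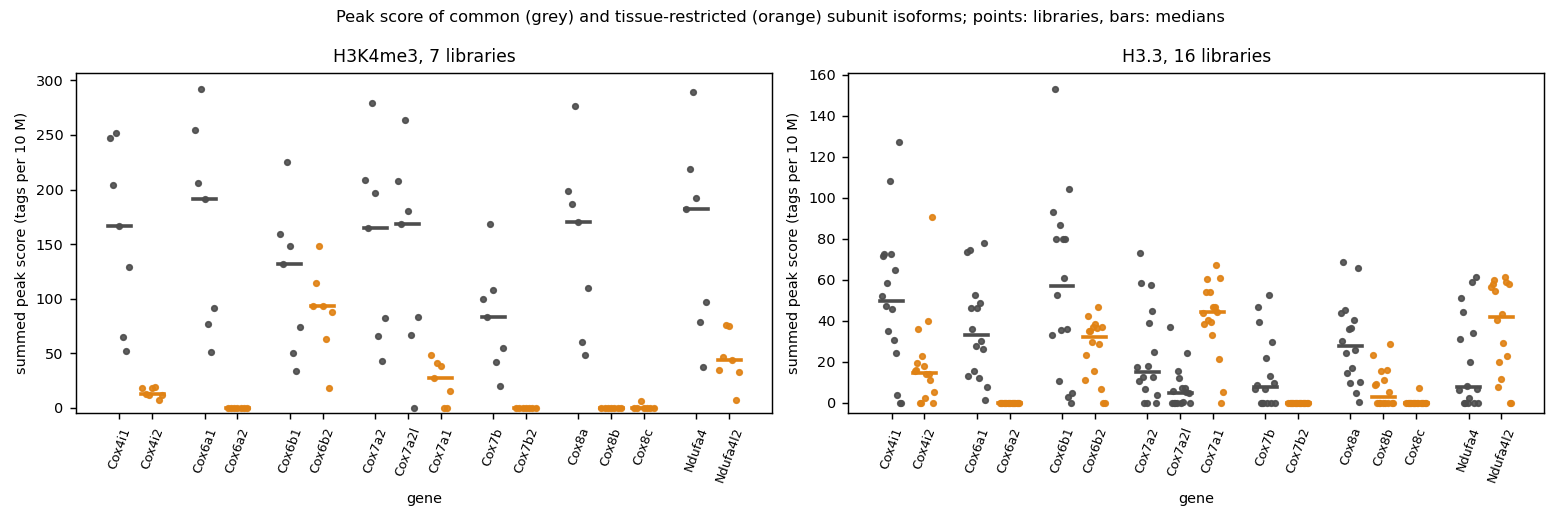
Summed peak score (y axis, tags per 10 M within 1 kb of the gene) of common and tissue-restricted isoforms of the same subunit (x axis), for H3K4me3 in 7 libraries (left) and H3.3 in 16 (right); points are libraries and bars medians. Cox4i2 lies at 19.2 or lower and Cox6a2, Cox7b2, Cox8b and Cox8c at 6.01 or lower for H3K4me3, and the median of Cox7a1 lies above that of Cox7a2 for H3.3 but below it for H3K4me3.

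The sorted fractions of the same day were compared to ask whether the route taken went with H3.3 at these genes. The successful minus unsuccessful share was 2.00 points at day 6, -2.00 at day 9, -19.0 at day 12 and -36.0 at day 16. At day 12, 19 members had H3.3 only in the unsuccessful fraction (15.1% of all genes), and at day 16, 36 did (17.5%), with no member the other way on either day (1.93% and 4.29% of all genes). When equal numbers of peaks were kept, 13 members at day 12 and 28 at day 16 had H3.3 only in the unsuccessful fraction (10.1% and 11.3% of all genes), and 6 and 8 only in the successful one (4.62% and 8.41%). The mean difference was -13.7 points (SD 17.4, n = 4 days), which did not pass an exact permutation test over the signs of the 4 days (two-sided p = 0.375). With 16 sign assignments the test cannot reach 0.05. All genes differed by 7.53, 3.35, -13.2 and -13.2 points on the same days (mean -3.89). The members' differences with equal numbers of peaks were 4.00, 1.00, -7.00 and -20.0 points (mean -5.50, exact p = 0.500), and those of all genes were 4.15, 2.86, -5.49 and -2.84. The sorts used different surface proteins at the earlier and later days, and the mix of cells in a fraction and the amount of H3.3 per cell cannot be told apart.

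In transdifferentiation, H3.3 was present at 66 members in MEF (53.3% of all genes), 94 in D4 (72.1%), 54 in cKit+ (33.3%) and 44 in cKit- (31.9%). From MEF to D4, 28 members were bound only in D4 (19.7% of all genes), including Sdha, Sdhc, Ndufs1, Ndufs4 and Uqcrfs1. None was bound only in MEF (0.871% of all genes). From D4 to cKit+, 41 members lacked H3.3 (39.4% of all genes), with Cox4i1, Sdha, Uqcrc1 and Uqcrc2 among them. Ndufb4 was bound only in cKit+ (0.512% of all genes). The cKit+ share was 12.0 points below that of MEF (-24.9 to 1.55 for the difference), while all genes were 20.0 points below. With equal numbers of peaks the members were 8 points above (-5.76 to 21.3), an interval that includes 0, while all genes stayed 8.16 points below. Tags in peaks were 7.64% in MEF, 37.2% in D4, 1.65% in cKit+ and 2.31% in cKit-. The day 0 fibroblast libraries of the 2 series, D0 and MEF, themselves differed by 21.0 points (87 and 66 members). The shares of all genes in them were 61.9% and 53.3%.

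Genes of neighbouring functions were counted from lists of known members. Of 20 respiratory chain and assembly genes outside the naming rule, H3.3, H3K4me3 and H3K36me3 were each present at 20 in D0, and at 20, 20 and 17 in iPSCs. Of 13 genes of the tricarboxylic acid cycle, which supplies the electrons, the counts were 11, 13 and 13 in D0 and 11, 13 and 12 in iPSCs. Of 12 regulators of mitochondrial gene expression they were 12, 12 and 10 in D0 and 11, 12 and 10 in iPSCs. Among all genes, 61.9%, 70.3% and 49.7% had H3.3, H3K4me3 and H3K36me3 in D0, and 61.2%, 69.1% and 34.8% in iPSCs. For the 77 mitochondrial ribosomal protein genes, as short as the members, the H3.3 share was 77.9% in D0, 61.0% in D16S+ and 84.4% in iPSCs. The H3.3 share of all genes in D16S+ was 43.4%.

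Gene length and neighbours were examined because a longer window meets more peaks by position alone. In D0, H3.3 was present at 24 of 31 members under 5 kb (77.4%), where 31.5% of all genes that short had it. The shares were 90.6% and 62.9% from 5 to 20 kb and 93.8% and 79.4% at 20 kb or more, so the members lay above all genes in each class. Another gene's window overlapped that of 63 members (37.3% of all genes), and 25 starts were head to head with a neighbour's (25.0%, all genes 7.14%). Of the 37 members without such a neighbour, 31 had H3.3 in D0 (83.8%), 34 H3K4me3 (91.9%) and 32 H3K36me3 (86.5%), and for all genes without one the shares were 51.8%, 61.1% and 40.0%. Cox4i1 and Cox4nb were the only members whose windows overlapped each other.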

How the data were processed

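H3.3, H3K4me3 and H3K36me3 ChIP-Seq was analysed from the authors' peak lists, 30 libraries of 46 samples. The other 16 samples are inputs, 1 for each stage or fraction, which the marks of a stage share. The authors mapped reads to mm9 with STAR, keeping reads with at most 2 mismatches and 1 locus, and called peaks per library against input with HOMER's histone style. Versions are not given in the sources used here. Per the file headers, the score is a signal, tags per 10 M in a peak. The deposited fold ratio over input was at least 2 for H3.3 and 4 for the other marks, and the deposited p-value limit was 0.0001, unadjusted. Peaks were joined to GENCODE vM1 genes with 1 kb flanks (at least 1 bp overlap), and scores were spread evenly over each peak. No count test could be run on such lists, and with 1 library per group the single test was the exact sign-flip test over 4 days. Intervals were 95% Wilson or Newcombe intervals. The overlap code was tested on simulated data: 200 planted genes of 22271 were all found. Python 3.11.15, numpy 2.4.6, scipy 1.17.1 and matplotlib 3.10.9 were used. Genes named were core subunits, isoform families, the highest scores, members without H3.3 and set patterns, plus members printed for counts or promoters and chosen after their values were seen. The values of 1 member are part of all totals but are not reported here. The members and lists were chosen with earlier results of these data known. Promoters were read from mm9, since all 1500134 peaks fit its chromosomes. RefSeq promoters (GRCm38.p6) were matched for 78 members and held the same core in 70. The annotated start was the same in 32 and within 100 bp in 67.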

Additional observations from a re-analysis of the deposited data

How the results depend on the processing

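The 10 results were recomputed under 7 alternatives, 1 of which, leaving out the 6 members whose record is over 100 kb, was chosen after seeing the data; 54 of 70 values moved by less than their interval, the SD over days or 1.5 times. In 1 alternative, only peaks of at least 4 fold over input for H3.3, or 8 for the other marks, were kept. The median share of members was then 69.0% for H3.3 (all genes 46.4%) and 18.0% for H3K36me3 (11.4%). The iPSCs minus D0 difference was -42.0 points in H3.3 (all genes -23.7), -39.0 in H3K4me3 (-35.6) and -12.0 in H3K36me3 (-9.12). H3.3 in all 7 libraries of the successful route was found at 5 of 100 members and 2183 of 22271 genes. The median share with all 3 marks was 9.00% of members and 9.42% of all genes. In these last 2 results the members did not exceed all genes at this setting. The median shares with equal numbers of top-scoring peaks were 69.5% for H3.3 (all genes 45.4%) and 52.0% for H3K36me3 (25.2%). For all 3 marks the median was 40.0% (21.1%). The H3K36me3 difference was then -13.0 points (-8.45) and the cKit+ minus MEF difference 8 points (-8.16). Without flanks the medians were 76.0% for H3.3 (all genes 52.7%) and 64.0% for all 3 marks (33.8%). With the peak midpoint inside the window the latter was 65.0% (33.6%). Of the 37 members without a neighbour in the window, 15 had H3.3 in all 7 libraries, beside 46 of all 100 members. The cause of the differences between settings was not tested. No paired analysis was possible because each group has 1 library, so a replicate number pairs nothing; this concerns replicate numbers only, since the sorted fractions were set side by side by day. Shares went with the share of tags in peaks, so lists of poorly enriched libraries limit what a missing peak means, and the depth of the inputs was not used here.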
